A study of Mus musculus with 18 samples.

Results

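The homeobox patterning genes of cranial neural crest (NC) were taken as the protein-coding genes of the Hoxa, Hoxb, Hoxc and Hoxd clusters and of the Dlx, Msx, Alx, Prrx, Pitx and sine oculis families, with Barx1 and Shox2. They were taken by symbol, but the families were chosen with earlier results of these data known. They made up 64 of the 55335 gene identifiers in the count data. Of these, 60 are described here, 38 of them Hox genes and 22 others, and all counts of members below are out of these 60. These genes encode transcription factors that bind DNA through a homeodomain. Along the body axis, nested Hox expression gives cells their axial position, and NC that enters the first pharyngeal arch and the face is known to lack it, whereas NC of more posterior arches carries Hox genes. In the Hox-free NC of the face, Dlx genes set dorsal and ventral identity within the arches, while the Msx, Alx, Prrx, sine oculis, Barx and Shox genes act in the mesenchyme that forms the bones, cartilages, teeth and palate.

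The cells were O9-1, a single line of NC cells taken from the heads of E8.5 mouse embryos, wildtype in all groups and kept in osteoblast differentiation medium. Bulk RNA-seq of poly(A) RNA was made in 18 libraries, 3 in each of 6 groups, at day 2.5 (d2.5) and day 5 (d5) of differentiation. Ctrl+vehicle cells had received a scrambled siRNA and vehicle, Ctrl+FGF2 cells the scrambled siRNA and FGF2, a ligand of the Fgf receptors, and Y/T dKD+FGF2 cells FGF2 with siRNA against both Yap and Taz, the transcriptional coactivators of the Hippo pathway (Taz is the gene Wwtr1). A Yap/Taz knockdown without FGF2 was not analysed here. The questions were thus what FGF2 does to these genes, and what lowering Yap/Taz does to them while FGF2 is present. The labels do not say that the replicates were separate cultures, so p-values measure the spread between these libraries, which may be technical.

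Each library held between 10377151 and 14698525 counts on genes (median 12330911), and levels are given as CPM (counts of a gene over the TMM-scaled total of its library, in units of 1e6 counts). Genes were called changed at a Benjamini-Hochberg adjusted p under 0.05 over all genes tested, and every adjusted p below is from edgeR's quasi-likelihood test with 3 libraries per group. Against Ctrl+FGF2, the knockdown lowered Yap1 by a log2 fold change of −0.96 at d2.5 (adjusted p = 9.75e-17) and −1.12 at d5 (3.55e-11), and Wwtr1 by −0.72 (2.55e-15) and −0.80 (4.92e-11). Of 10 NC markers, 6 reached a group mean of 1 CPM, among them Tfap2a, Snai2 and Twist1, while Foxd3, Ngfr, Sox10 and Tfap2b stayed under it. The NC markers summed to between 179 and 306 CPM in a library, mesenchymal markers to between 15560 and 81370 and osteoblast markers to between 1701 and 9190, most of the last being Spp1. As group means, Runx2 lay between 92.1 and 199 CPM and Alpl between 0.105 and 162, and Bglap did not exceed 2.69. Markers of epithelium, endothelium, blood and muscle summed to low levels in every library, each list at most to 5.615 CPM. Fewer cells of one type and less RNA per cell cannot be told apart in bulk RNA.

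The Hox members of all 4 clusters were silent at this depth. In 684 values, 38 Hox genes in 18 libraries, 1 read was counted in all, on Hoxa11, and the other 37 Hox genes had no count in any library. No count lay on the opposite strand of these genes either. A gene without a count in 223702504 counts may still be present at up to 0.0134 CPM, taking 3 counts as the limit, which covers counting error only. This held for the 10 members in Hoxa bar that 1 read and for the 10 in Hoxb, 9 in Hoxc and 9 in Hoxd, and neither FGF2, the knockdown nor the later day brought any of them to more than 1 count in a library. Hoxa2, the Hox gene of second-arch NC, was among the genes at 0.

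These members span 485 kb of the mm10 genome (GRCm38), those of Hoxa lying at chr6:52162417-52260880, those of Hoxb at chr11:96194316-96368256, those of Hoxc at chr15:102921103-103036852 and those of Hoxd at chr2:74668310-74765142. Within these spans, 41 other annotated genes held 739 counts, and 737 of those lay on the processed pseudogene Gm11539 in Hoxb (3.21 CPM), whose count is uncertain, since a processed pseudogene resembles its parent gene. Some, but not all, of the nearest genes outside the outermost Hox members were low too. The share of all protein-coding genes under 1 CPM was not counted. Of the 24 nearest protein-coding genes, 3 on either side of each cluster, 7 lay less than 100 kb from the outermost member, and 5 of these 7 were under 1 CPM. Evx1 and Evx2, the even-skipped homeobox genes at the ends of Hoxa and Hoxd, were at 0, at 52618 and 8753 bases from the members. Ttll6 (28865 bases), Calcoco2 (82352 bases) and Skap1 (96337 bases) beside Hoxb were at most at 0.0706 CPM, while Mtx2 (60661 bases) and Lnpk (88875 bases) beside Hoxd were at 35.8 and 41.5 CPM. The other 17 genes lay 116438 to 910371 bases away, and all of them had a mean of at least 1 CPM. Among them, Hnrnpa1, which encodes an RNA-binding protein, was at 858 CPM at 203580 bases from Hoxc, and Cbx5, which encodes the heterochromatin protein HP1 alpha, at 394 CPM at 154692 bases.

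**Figure D1:**
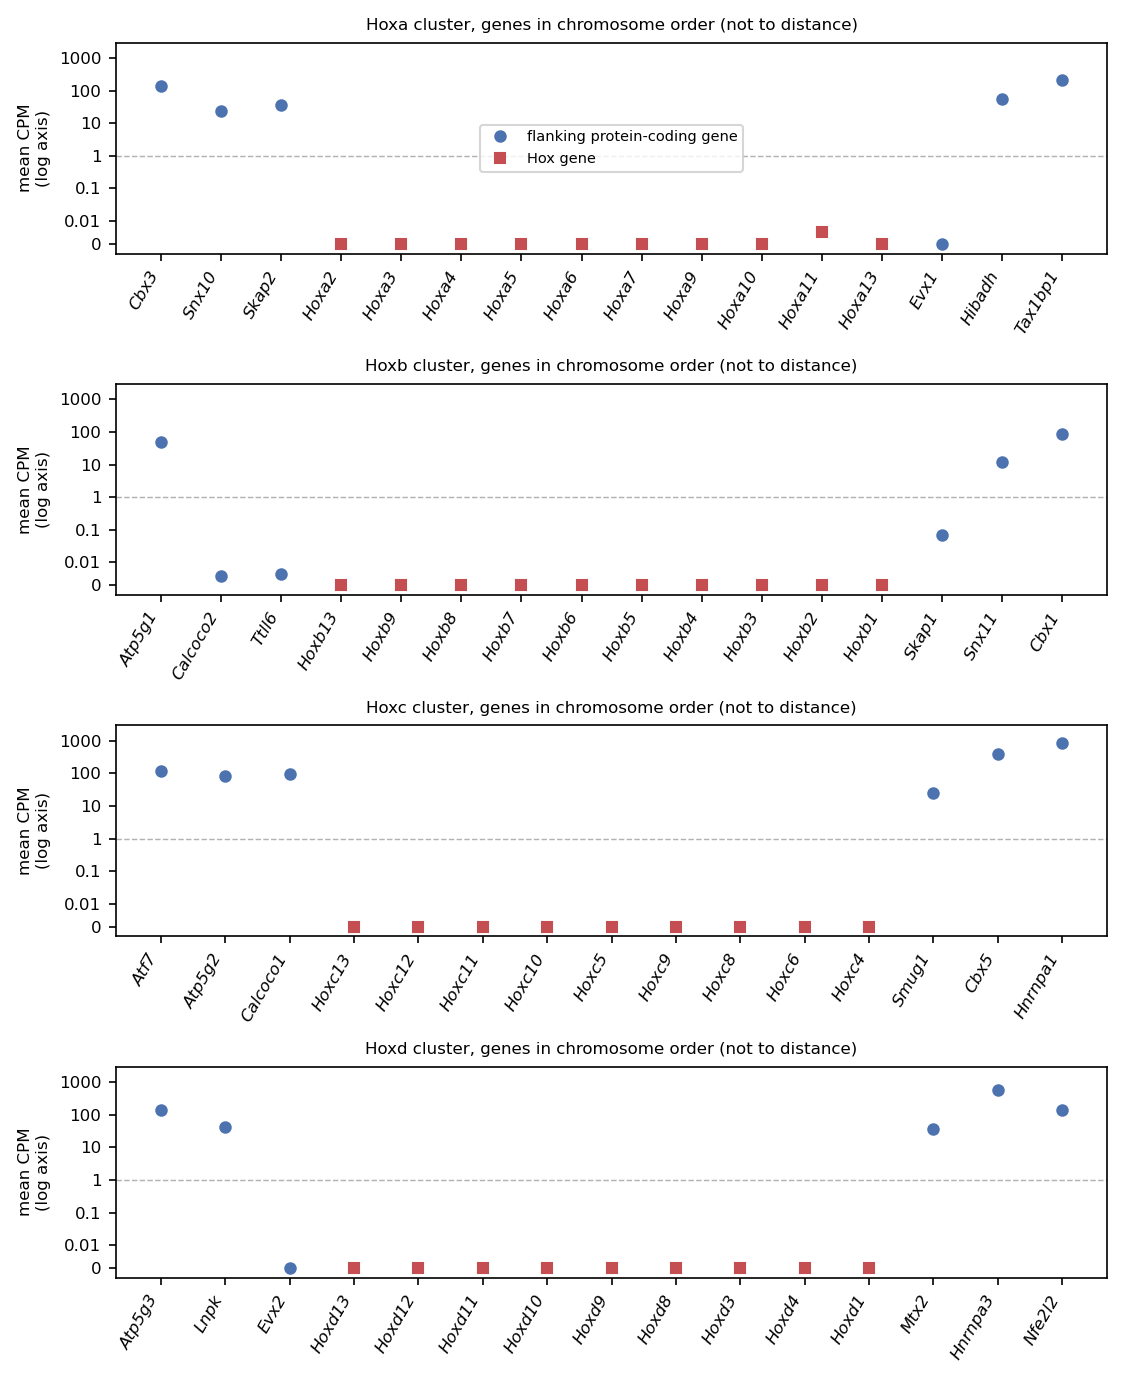
Mean level (CPM over 18 libraries, log axis) of the Hox members in each of the 4 clusters and of the 3 nearest protein-coding genes on either side, in order along the chromosome. The 38 Hox genes sit at or near 0, while 19 of the 24 flanking genes reach at least 1 CPM, 2 of them among the 7 that lie less than 100 kb away.

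The remaining 22 members fell into 4 classes. Alx1, Six3 and Six6 had no count in any library, and Dlx4 and Six2 had 1 to 9 counts over all libraries. Another 6 had 10 to 99 counts, namely Dlx3 (88), Msx3 (73), Pitx1 (24), Alx4 (22), Dlx6 (20) and Pitx3 (16). The other 11 had at least 100 counts: Prrx1, Prrx2, Six4, Six5, Dlx1, Dlx2, Dlx5, Msx1, Msx2, Shox2 and Barx1. After the filter on low counts, these 11 and Dlx3 were tested at d2.5 and these 11 at d5, so that 48 of the 60 members entered no test.

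Per kilobase of exon, Prrx1 led with a mean of 158 CPM per kb over all libraries, followed by Prrx2 at 43.0. Dlx1 at 14.2, Dlx2 at 10.8 and Shox2 at 10.6 came next and lay close together. Barx1 (4.94), Six4 (4.41), Msx1 (4.06) and Six5 (3.30) formed a lower group, with Msx2 (0.936) and Dlx5 (0.614) below it. Prrx1 stood above every other member in all 18 libraries, its lowest library being at 116 CPM per kb and the highest library of Prrx2 at 83.3. Prrx2 in turn stood above every member below it, its lowest library being at 25.25 CPM per kb and the highest library of Dlx1 at 19.8. From Dlx1 to Dlx5, the ranges of neighbours in the order overlapped over the 18 libraries.

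**Figure D2:**
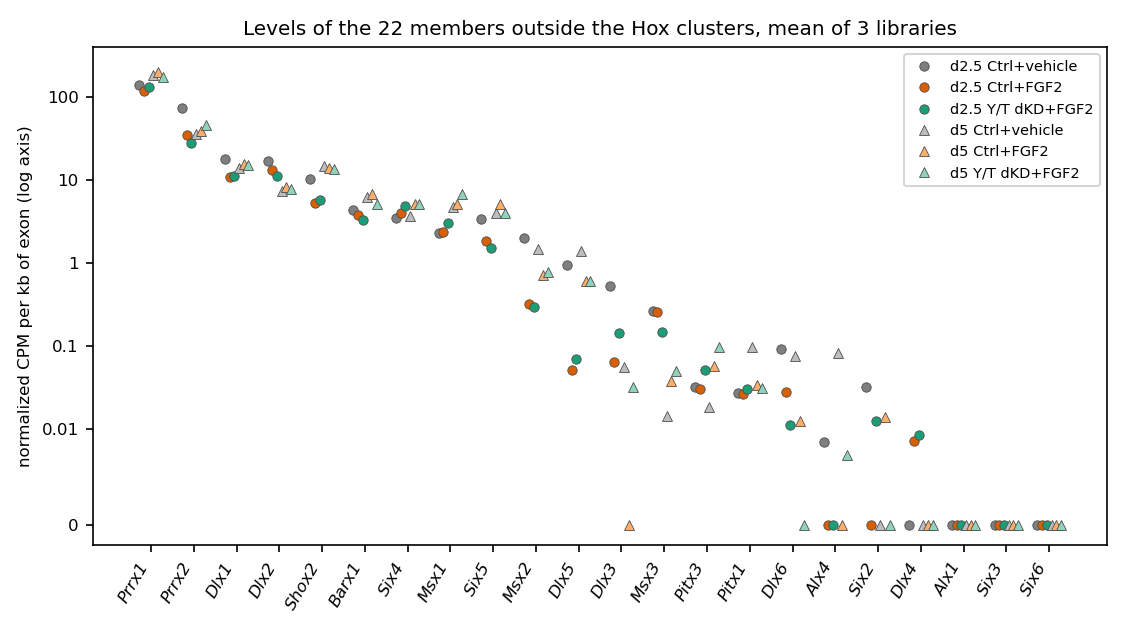
Levels of the members outside the Hox clusters, as CPM per kb of exon on a log axis, in the 6 groups. Prrx1 sits highest at 158 on average, and the members from Prrx1 to Dlx5 span more than 2 orders of magnitude.

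FGF2 lowered most of the detected members at d2.5. Of the 12 tested, 9 fell and 1 rose, beside 34.1% of all genes called lower and 33.5% called higher (67.6% in all). The largest falls were those of Dlx5 (log2 fold change −4.13), Dlx3 (−3.02) and Msx2 (−2.66), and Prrx2 (−1.11), Shox2 (−0.97), Six5 (−0.88), Dlx1 (−0.77), Dlx2 (−0.39) and Prrx1 (−0.27) fell as well. Six4 was the member that rose (0.18), and Msx1 (0.05, adjusted p = 0.747) and Barx1 (−0.21, adjusted p = 0.152) did not pass the test. The median of the 12 was −0.825, beside 0.00217 over all genes. Dlx3 and Dlx5 were so low with FGF2 that they passed the filter through Ctrl+vehicle alone, so their inclusion leaned on that group. Their fall was thus near fixed in advance, and both stand in the count of 9 and in the median. Apart from them, Msx2, Prrx2, Shox2, Six5, Dlx1, Dlx2 and Prrx1 were the members called lower. With a change of at least 2-fold required in addition, 4 members (Dlx5 and Dlx3 among them) and 13.9% of all genes were called.

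At d5 the same comparison looked different. Of the 11 members tested, 4 rose and 2 fell, beside 23.5% and 23.7% of all genes (47.2% in all). Six4 (0.48), Six5 (0.37), Prrx2 (0.17) and Prrx1 (0.14) rose, Dlx5 (−1.17) and Msx2 (−1.05) still fell, and Dlx1, Dlx2, Shox2, Msx1 and Barx1 did not pass. The median was 0.14, beside 0.0156 over all genes. Prrx2 and Six5 were calls that hung on 1 library each, with an adjusted p of 0.0786 for Prrx2 without Ctrl+FGF2 replicate 1 and of 0.054 for Six5 without Ctrl+FGF2 replicate 2. Dlx1 (adjusted p = 0.0602) passed without Ctrl+vehicle replicate 3 (0.0401) or without Ctrl+FGF2 replicate 1 (0.0232), and Dlx2 (0.0638) passed without Ctrl+vehicle replicate 1 (0.0436).

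The change between the days was tested itself, in a fit of all 18 libraries, as the FGF2 effect at d5 minus that at d2.5. It was called above 0 for 9 of the 11 members, beside 31.8% of all genes called higher (60.9% in either direction). The differences were 2.92 for Dlx5, 1.59 for Msx2, 1.25 for Prrx2, 1.23 for Six5, 0.91 for Dlx1, 0.89 for Shox2, 0.54 for Dlx2, 0.39 for Prrx1 and 0.28 for Six4 on the log2 scale, with adjusted p-values up to 0.00532. Msx1 (0.03, 95% interval −0.29 to 0.35) and Barx1 (0.31, −0.06 to 0.69) did not pass. The day is also the batch in the labels, and day and batch cannot be told apart.

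**Figure D3:**
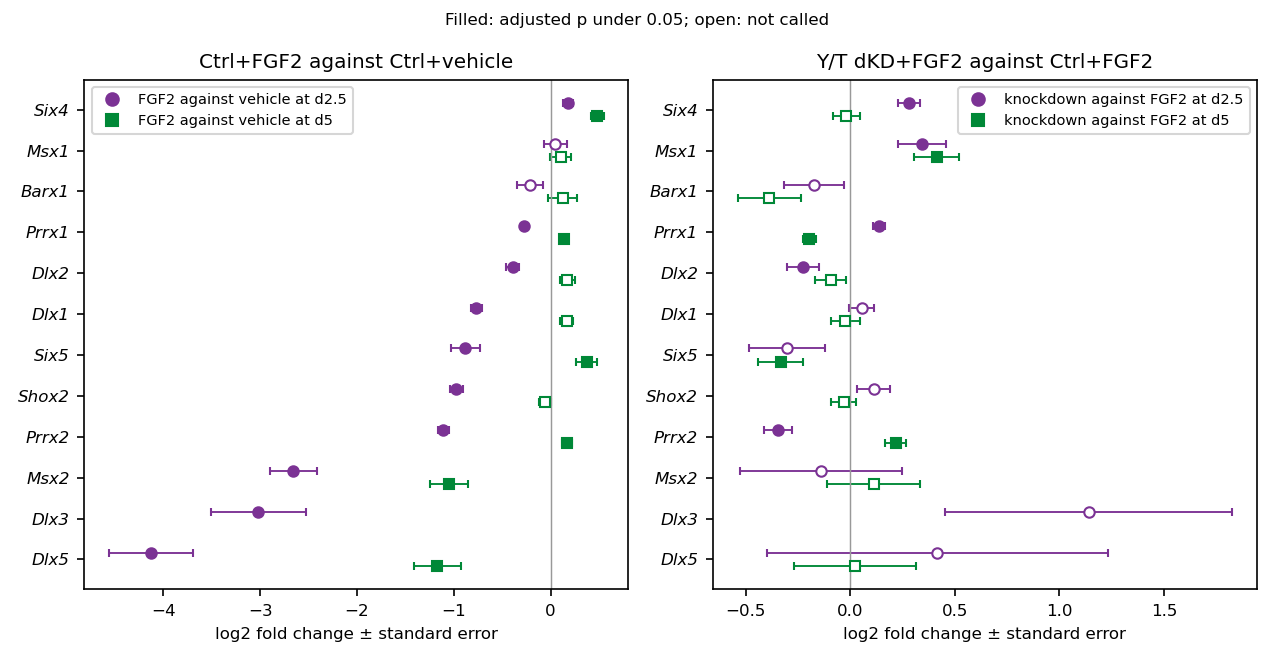
Log2 fold changes of the 12 tested members for FGF2 against vehicle and for the knockdown against FGF2 at d2.5 and d5, with standard errors. FGF2 at d2.5 gives the largest changes, down to −4.13 for Dlx5, while the knockdown effects stay between −0.39 and 0.42 but for Dlx3 at d2.5, which was not called.

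The neighbourhood of the start site was read for the tested members that had a promoter window, to show which known binding motifs it holds. Dlx5 and Dlx3, which had the largest falls with FGF2 at d2.5, had no window. Of the 60 members, 37 had at least 1 window in the RefSeq promoters of GRCm38.p6, each of 250 bases before and 50 after the start. Shown here are the 250 bases before the RefSeq start, 5′ to 3′ on the gene's strand. They are given for the 2 Prrx genes, which differ in how they responded, and for Msx2 and Dlx2, which each hold a match. RefSeq starts can differ from the gene limits given elsewhere in the text, which are from GENCODE M21. By those limits, the Prrx2 and Msx2 stretches and part of the Prrx1 stretch lie inside the gene. Prrx1 is at chr1:163313651-163313900 (minus strand), Prrx2 at chr2:30845117-30845366 (plus strand), Msx2 at chr13:53472781-53473030 (minus strand) and Dlx2 at chr2:71546755-71547004 (minus strand). Capitals mark motif matches.
Prrx1: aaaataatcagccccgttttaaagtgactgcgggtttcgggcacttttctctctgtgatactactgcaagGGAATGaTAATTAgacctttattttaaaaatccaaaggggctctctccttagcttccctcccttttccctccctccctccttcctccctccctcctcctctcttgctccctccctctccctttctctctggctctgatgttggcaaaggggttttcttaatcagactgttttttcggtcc
Prrx2: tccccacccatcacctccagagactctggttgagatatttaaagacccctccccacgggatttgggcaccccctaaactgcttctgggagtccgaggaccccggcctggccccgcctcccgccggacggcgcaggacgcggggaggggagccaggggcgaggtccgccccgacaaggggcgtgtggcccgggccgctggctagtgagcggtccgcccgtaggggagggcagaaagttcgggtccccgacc
Msx2: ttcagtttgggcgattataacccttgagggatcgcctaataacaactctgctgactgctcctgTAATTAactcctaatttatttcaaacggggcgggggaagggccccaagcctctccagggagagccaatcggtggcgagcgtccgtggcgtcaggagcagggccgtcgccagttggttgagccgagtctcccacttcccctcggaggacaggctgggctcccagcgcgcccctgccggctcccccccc
Dlx2: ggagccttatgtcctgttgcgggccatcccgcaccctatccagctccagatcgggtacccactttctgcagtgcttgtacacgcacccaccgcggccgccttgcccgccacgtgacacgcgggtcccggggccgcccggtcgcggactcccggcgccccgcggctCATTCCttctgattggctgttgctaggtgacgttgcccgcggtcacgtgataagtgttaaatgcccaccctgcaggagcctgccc

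The motifs searched were the Tead motif GGAATG, bound by the partners of Yap and Taz, the AP-1 motif TGANTCA, the homeodomain motif TAATTA and the Ets motif CCGGAA on both strands, and the TATA box TATAAA on the gene's strand. Prrx1 held a Tead match starting 180 bases before the start and a homeodomain match at 173 bases, separated by a single base. Dlx2 held a Tead match 85 bases before its start, on the opposite strand, and Msx2 a homeodomain match at 187 bases. The windows of Prrx2, Dlx1, Msx1 and Barx1 held none of the 5 motifs, while Six5 held an AP-1 match, Six4 Ets matches and Shox2 a TATA match. Over all 32851 promoters, 14.7% held the Tead motif, 7.81% AP-1, 5.29% homeodomain, 14.9% Ets and 8.32% TATA, so that single matches are common, and a match describes letters and not binding. In the 11 windows of members outside the Hox clusters with at least 100 counts, 2 held Tead, 1 AP-1, 2 homeodomain, 2 Ets and 1 TATA. Whether a motif goes with a response was not tested. The median ratio of observed to expected CpG was 0.626 in 24 Hox windows, 0.756 in 11 windows of other members with at least 100 counts and 0.747 in 5 of those with fewer, beside 0.384 over all promoters.

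Prrx1 and Prrx2, paired-related factors of limb and craniofacial mesenchyme that act redundantly in skull and jaw formation, were the highest members. Prrx1 (chr1:163245119-163313710) was at 1563, 1557 and 1565 CPM in the Ctrl+vehicle libraries at d2.5, at 1310, 1281 and 1313 with FGF2 and at 1449, 1392 and 1484 with FGF2 and the knockdown. The 3 groups did not overlap. At d5 the same groups were at 1988, 2056 and 2037, at 2231, 2238 and 2186, and at 1921, 1944 and 1969 CPM, again without overlap but in another order, FGF2 now being highest. FGF2 thus lowered Prrx1 at d2.5 (−0.27, SE 0.03, adjusted p = 5.15e-10) and raised it at d5 (0.14, SE 0.03, 0.00104). The knockdown, in a comparison that shares the Ctrl+FGF2 libraries, raised it at d2.5 (0.14, SE 0.03, 0.000506) and lowered it at d5 (−0.20, SE 0.03, 9.72e-05). These shifts are small against the level of the gene, at most 1.21-fold.

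Prrx2 (chr2:30834972-30881251) was highest in Ctrl+vehicle at d2.5, at 131.6, 163 and 144 CPM. It stood at 67.9, 65.4 and 72 with FGF2 and at 56.7, 56.5 and 49.5 with the knockdown added, so the 3 groups did not overlap. At d5 the values were 69.0, 67.8 and 71.2 in Ctrl+vehicle, 82.9, 74.2 and 74.6 in Ctrl+FGF2 and 87.6, 92.9 and 89.7 in Y/T dKD+FGF2, the order being reversed. FGF2 lowered Prrx2 2.15-fold at d2.5 (−1.11, SE 0.06, adjusted p = 6.41e-17) and raised it 1.12-fold at d5 (0.17, SE 0.05, 0.0117). The knockdown lowered it at d2.5 (−0.35, SE 0.07, 0.0003) and raised it at d5 (0.22, SE 0.05, 0.00247). Per kb, the ratio of Prrx1 to Prrx2 went from a mean of 1.91 ± 0.21 (SD, n = 3) in Ctrl+vehicle at d2.5 to 3.38 ± 0.13 with FGF2 and 4.74 ± 0.50 with the knockdown, and at d5 it was 5.18 ± 0.16, 5.10 ± 0.30 and 3.83 ± 0.10.

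The Dlx genes lie in pairs, and the pairs were used unequally. Dlx1 and Dlx2 (gap 9427 bases on chromosome 2), which pattern the upper part of the first arch, carried nearly all Dlx counts. Dlx5 and Dlx6 (gap 9237 bases on chromosome 6), which give the lower jaw its identity, were at 301 and 20 counts over all libraries, and Dlx3 and Dlx4 (gap 15151 bases) at 88 and under 10. Dlx1 was at 91.7, 107 and 94.4 CPM in Ctrl+vehicle at d2.5, at 59.1, 61.1 and 53.9 with FGF2 and at 57.6, 61.5 and 62.7 with the knockdown. Both FGF2 groups lay below the vehicle group and overlapped each other. At d5 the groups, at 68.5, 77.3 and 80.6, at 78.6, 92.6 and 80.4, and at 89.2, 79.5 and 80.1 CPM, overlapped throughout. FGF2 lowered Dlx1 1.70-fold at d2.5 (SE 0.06 on the log2 scale, adjusted p = 1.71e-13), and the knockdown effect did not pass on either day (0.06, 95% interval −0.06 to 0.17, adjusted p = 0.548, and −0.02, −0.16 to 0.11, 0.838).

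Dlx2 was at 42.2, 54.2 and 48.6 CPM in Ctrl+vehicle, at 38.0, 36.6 and 36.8 with FGF2 and at 33.4, 33.0 and 29.6 with the knockdown at d2.5, a stepwise order without overlap. By d5 it had come down to 22.3, 21.4 and 19.8, to 24.7, 23.0 and 23.3, and to 22.0, 22.6 and 22.2 CPM. The fall with FGF2 at d2.5 was 1.31-fold (−0.39, SE 0.07, adjusted p = 7.43e-06). That with the knockdown at d2.5 (−0.23, SE 0.07, 0.0259) was lost without Ctrl+FGF2 replicate 1 (adjusted p = 0.0902) or 3 (0.056) or without Y/T dKD+FGF2 replicate 3 (0.167). The reads of Dlx1 need a caution about strand. Its forward-strand column held 2751 counts, 13.8% of its stranded counts, where 3.36% to 3.96% is usual for a library, and the gene of the antisense RNA Dlx1as is annotated across it on the other strand. Dlx1as itself had 80 to 145 counts per library at d2.5 and 8 to 23 at d5, and did not pass with FGF2 (adjusted p = 0.287 and 0.671) or with the knockdown (0.326 and 0.425).

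Dlx5 was counted mostly outside the FGF2 groups of d2.5. Its counts were 30, 34 and 29 in Ctrl+vehicle at d2.5, 0, 3 and 2 with FGF2 and 1, 2 and 3 with the knockdown. The vehicle libraries of d2.5 stood far above the others of that day, which did not exceed 3 counts. At d5 they were 34, 31 and 38, against 13, 19 and 15 with FGF2 and 22, 13 and 12 with the knockdown. The fitted log2 fold change of FGF2 was −4.13 at d2.5 (SE 0.43, adjusted p = 7.2e-10), and −1.17 at d5 (SE 0.24, 0.000738). The d2.5 value rests on very few reads and on a filter passed through the vehicle group, and it came to −4.82 without Ctrl+FGF2 replicate 2, as did the difference between days to 3.61. The knockdown gave 0.42 (95% interval −1.18 to 2.01) and 0.02 (−0.55 to 0.59), intervals wide enough to hold a doubling at d2.5. Dlx3, named after its values were seen, had 11, 25 and 23 counts in Ctrl+vehicle at d2.5, 3, 3 and 1 with FGF2 and 8, 3 and 3 with the knockdown, and at most 4 in any library at d5.

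Msx1 and Msx2 are muscle-segment homeobox factors of the arches, teeth and calvaria, Msx2 being a factor of the skull vault and sutures. The 2 genes separated under FGF2. Msx2 (chr13:53466884-53473074) was at 5.04, 8.58 and 6.18 CPM in Ctrl+vehicle at d2.5, at 1.48, 0.946 and 0.735 with FGF2 and at 1.24, 1.09 and 0.553 with the knockdown. At d5 it was at 5.33, 4.5 and 4.85, at 2.76, 2.36 and 1.89, and at 2.21, 2.24 and 3.26 CPM. On both days the vehicle libraries lay above all FGF2 libraries, and the 2 FGF2 groups overlapped. Msx2 fell 6.34-fold with FGF2 at d2.5 (SE 0.24 on the log2 scale, adjusted p = 3.95e-11) and 2.06-fold at d5 (SE 0.20, 0.000266), while the knockdown effects were −0.14 (95% interval −0.89 to 0.62) and 0.11 (−0.32 to 0.55).

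Msx1 (chr5:37820485-37824583) did not follow. At d2.5 it was at 6.21, 7.62 and 7.42 CPM in Ctrl+vehicle, at 7.54, 7.72 and 6.89 with FGF2, where the groups overlapped, and at 9.28, 9.57 and 9.40 with the knockdown, above both. At d5 the values were 13.1, 16.1 and 15.1, then 16.6, 13.2 and 17.6, and with the knockdown 22.1, 21.4 and 19.5 CPM. Msx1 was thus the member raised by the knockdown on both days, by 1.27-fold (0.34, SE 0.12, adjusted p = 0.0273) and 1.33-fold (0.41, SE 0.11, 0.00634), and the difference between the days did not pass (0.07, 95% interval −0.24 to 0.38, adjusted p = 0.823). The d2.5 call was lost without any 1 of the knockdown libraries or without Ctrl+FGF2 replicate 1 or 3, with an adjusted p between 0.0542 and 0.123. Per kb, Msx1 and Msx2 were nearly level in Ctrl+vehicle at d2.5 (ratio 1.17 ± 0.20), whereas the ratio was 7.98 ± 2.33 with FGF2 and 11.7 ± 5.47 with the knockdown. At d5 the ratios were 3.23 ± 0.60, 7.40 ± 2.17 and 9.01 ± 2.34.

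Msx3, a gene of the dorsal neural tube, had 3 to 13 counts per library at d2.5 and at most 2 at d5, and entered no test. Alx4, an aristaless-like factor of frontonasal and skull mesenchyme, was counted 6, 7 and 6 times in Ctrl+vehicle at d5. It was never counted in the Ctrl+FGF2 libraries of that day. The vehicle level as measured was 6.05-fold the limit for Ctrl+FGF2, taking 3 counts over that group. This ratio leaves out the counting error of the vehicle reads, so it is not a lower bound. Elsewhere Alx4 had at most 1 count in a library. It was too low for the test, and its sister Alx1 had no count.

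Six4, a sine oculis factor of cranial mesenchyme and placodes, rose with FGF2 on both days. It was at 39.9, 38.4 and 36.5 CPM in Ctrl+vehicle, 43.1, 44.4 and 43.4 with FGF2 and 53.1, 53.9 and 52.9 with the knockdown at d2.5, the groups rising without overlap. At d5 it was at 35.2, 42.9 and 42.8, at 53.9, 58.5 and 55.5, and at 56.1, 53.9 and 56.6 CPM, the 2 FGF2 groups overlapping above the vehicle group. The FGF2 effects were 0.18 (SE 0.05, adjusted p = 0.00435) and 0.48 (SE 0.07, 1.26e-05), and the knockdown effects 0.28 (SE 0.05, 0.000148) and −0.02 (SE 0.06, 0.86).

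**Figure D4:**
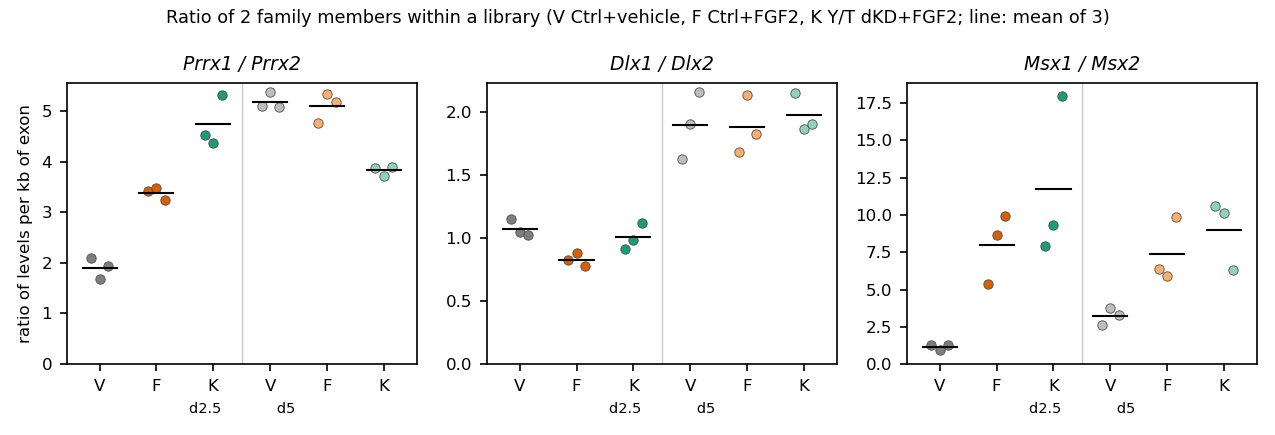
Ratios of related members per kb of exon (Prrx1 to Prrx2, Dlx1 to Dlx2 and Msx1 to Msx2) in each library of the 6 groups. The Msx ratio is near 1 only in Ctrl+vehicle at d2.5 (mean 1.17), and the Prrx ratio lies lowest in that group too (mean 1.91).

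Six5, a broadly expressed sine oculis factor, was at 11.3, 10.5 and 8.66 CPM in Ctrl+vehicle at d2.5, at 6.69, 5.97 and 4.15 with FGF2 and at 4.72, 5.60 and 3.32 with the knockdown. At d5 it was at 11.7, 12.3 and 11.7, at 14.1, 16.9 and 14.8, and at 12.5, 13.4 and 10.5 CPM. The vehicle group lay above both FGF2 groups at d2.5 and below Ctrl+FGF2 at d5. FGF2 changed it by −0.88 (SE 0.15, adjusted p = 5.65e-06) and 0.37 (SE 0.11, 0.0088). The fall with the knockdown at d5 (−0.33, SE 0.11, 0.0254) was lost without Ctrl+FGF2 replicate 2 or without Y/T dKD+FGF2 replicate 3 (adjusted p up to 0.13).

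Shox2, a short-stature homeobox factor of palate and limb mesenchyme, fell with FGF2 at d2.5, and its groups overlapped at d5. It was at 33.3, 34.9 and 35.1 CPM in Ctrl+vehicle, at 16.6, 18.1 and 18.3 with FGF2 and at 20.5, 18.4 and 18.7 with the knockdown at d2.5. At d5 all 3 groups lay between 43.4 and 51.3 CPM. The FGF2 effect was −0.97 (SE 0.07, adjusted p = 7.92e-14) at d2.5 and −0.06 (SE 0.06, 0.453) at d5. Barx1, a Bar-class factor of molar and stomach mesenchyme, was at 4.39 to 6.08 CPM at d2.5 and 5.53 to 10.7 at d5. It passed in none of the 4 comparisons of FGF2 or the knockdown, the value nearest to the threshold being that of the knockdown at d5 (−0.39, SE 0.15, adjusted p = 0.0625). Barx1 is named here after its values were seen.

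**Figure D5:**
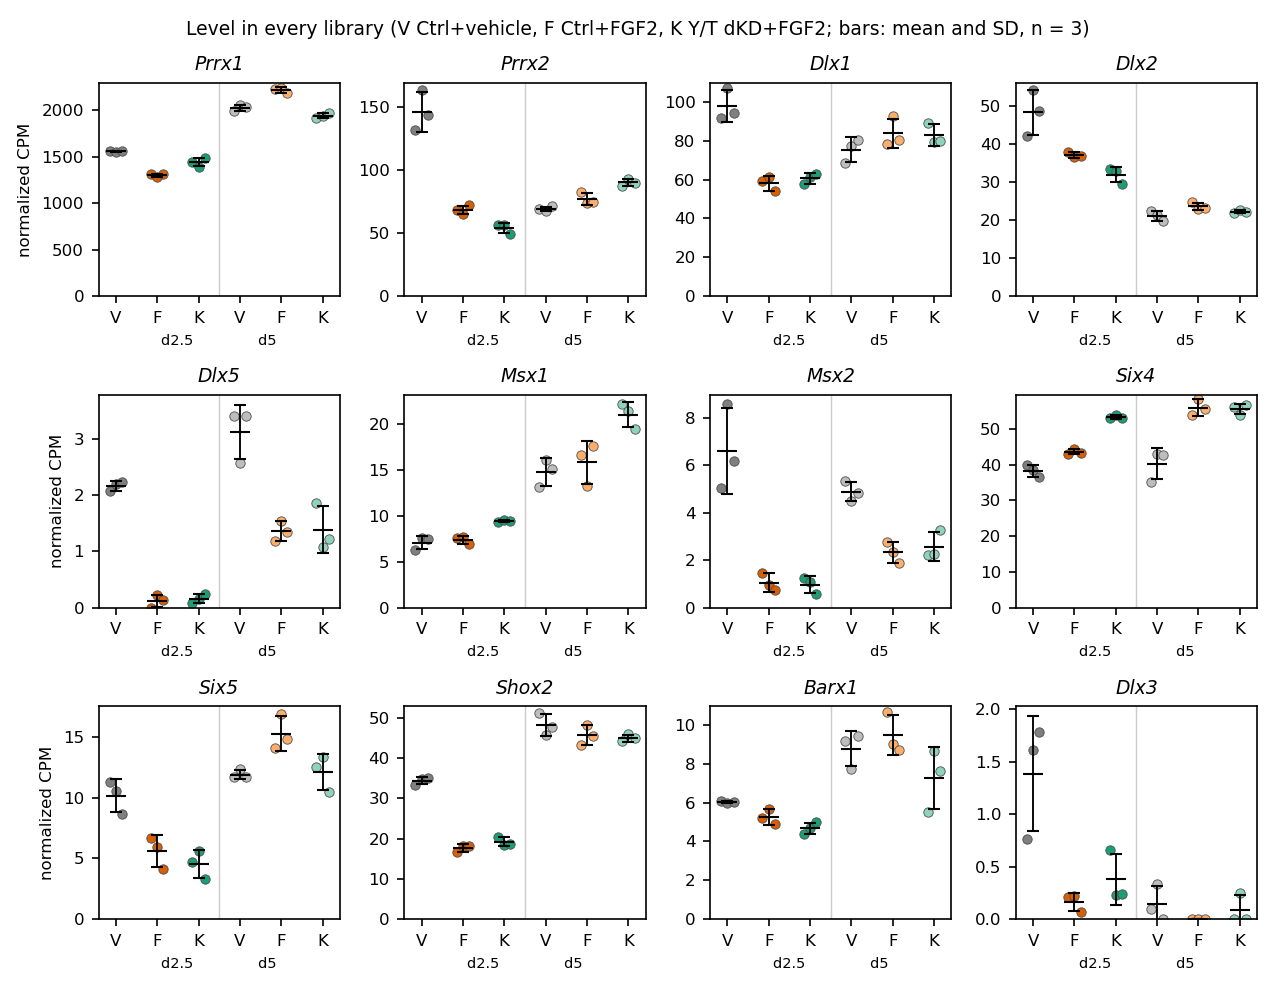
Level (CPM after TMM scaling) of each detected member in every library, by group and day. In the panels of Msx2 and Dlx5 the vehicle libraries stand above all FGF2 libraries on both days, and in that of Prrx2 the order of the groups turns between d2.5 and d5.

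The knockdown effects on the members were small. At d2.5, 3 of 12 rose (Msx1, Six4 and Prrx1) and 2 fell (Prrx2 and Dlx2), beside 10.8% and 13.6% of all genes (24.5% in all). At d5, 2 of 11 rose (Msx1 and Prrx2) and 2 fell (Six5 and Prrx1), beside 15.6% and 16.1% (31.7% in all). The medians were 0.0838 and −0.0228, beside 0.00133 and 0.00338 over all genes. The largest called change was 1.33-fold, that of Msx1 at d5. Between the days the knockdown effect differed for 3 of 11 members, beside 20.9% of all genes. It was higher at d5 for Prrx2 (0.56, adjusted p = 5.92e-05) and lower for Prrx1 (−0.34, 5.41e-07) and Six4 (−0.30, 0.0078), where 11.6% and 9.35% of all genes were called higher and lower.

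Y/T dKD+FGF2 was also set against Ctrl+vehicle, with which it shares neither siRNA nor treatment. At d2.5 all 12 tested members differed, 10 lower and 2 higher (Six4 and Msx1), beside 35.7% and 34.1% of all genes (69.8% in all). Dlx5 (−3.71), Msx2 (−2.80), Dlx3 (−1.88) and Prrx2 (−1.45) were lowest against vehicle. Here too, Dlx5 and Dlx3 passed the filter through Ctrl+vehicle alone, so their lower level was near fixed in advance, and both stand in the count of 10. The call of Barx1 (−0.39, adjusted p = 0.014) was lost without Y/T dKD+FGF2 replicate 1 (0.059). At d5, 5 of 11 differed (41.8% of all genes). Msx1 (0.51), Six4 (0.46) and Prrx2 (0.39) were higher, beside 20.7% of all genes, and Dlx5 (−1.14) and Msx2 (−0.93) lower, beside 21.1%. The 3 comparisons of a day share libraries and are not independent of each other.

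Markers of mesenchyme, bone and other cell types moved with FGF2 at d2.5 too, where 34.1% of all genes were called lower and 33.5% higher. Of 6 mesenchymal markers tested, 4 fell (Col1a1 −2.53, Col1a2 −1.60, Pdgfrb −0.88 and Pdgfra −0.45) and 1 rose (Vim), and their sum lay between 35970 and 37200 CPM in Ctrl+vehicle, 15970 and 16120 with FGF2 and 15560 and 16280 with the knockdown. Of 5 osteoblast markers tested, 4 fell (Alpl −9.61, Sp7 −2.82, Ibsp −2.34 and Runx2 −0.84), while Spp1 rose (0.78) and carried their sum from between 4622 and 4707 CPM to between 7012 and 7119. By the fit, Alpl with FGF2 was at 0.128% of its vehicle level. Its inclusion thus leaned on Ctrl+vehicle, and the size of its fall rests on very few reads. Chondrocyte markers (3 of 3 at 1 CPM or more, Col2a1, Acan and Sox9) summed to between 702 and 920 CPM in the Ctrl+vehicle libraries of d2.5, between 117 and 129 with FGF2 and between 113 and 120 with the knockdown. At d5 they lay between 221 and 432 CPM. Neuron markers summed to between 63.3 and 68.9 CPM in Ctrl+vehicle at d2.5, between 19.3 and 23.1 with FGF2 and between 18.1 and 19.6 with the knockdown, and to at most 5.43 at d5, with Elavl3, Elavl4 and Rbfox3 under 1 CPM as group means. Stmn2 (−2.37) and Tubb3 (−0.94) fell with FGF2 at d2.5, whereas Snap25 rose (2.33, adjusted p = 0.000225). Of the lists with low sums, Krt14 and Pecam1 fell and Epcam rose. Krt14, at 3.34% of its vehicle level by the fit, likewise had few reads with FGF2. Their part in the falls of the members at d2.5 was not tested.

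From d2.5 to d5 most members changed, and the groups with and without FGF2 changed by different amounts for the 9 members whose FGF2 effect differed between days in the test above. In Ctrl+FGF2, 10 of 11 rose and 1 fell, beside 41.2% and 38.8% of all genes (80.0% in all). With the knockdown, 9 rose and 1 fell, beside 40.3% and 38.1% (78.4%), and Six4 did not pass (0.06, adjusted p = 0.357). In Ctrl+vehicle, 5 rose and 4 fell, beside 33.1% and 33.2% (66.4%). Prrx2 fell 2.11-fold in vehicle (−1.08, SE 0.06, 1.92e-15) but rose in the FGF2 groups. Dlx2 was the gene that fell in all 3 groups (−1.20, −0.65 and −0.52), and Msx1 rose by about the same amount in each (1.06, 1.09 and 1.16). The vehicle fall of Msx2 (−0.45, 0.0332) and rise of Dlx5 (0.52, 0.0334) lay near the threshold. Msx2 was at −0.20 (adjusted p = 0.371) without d2.5 Ctrl+vehicle replicate 2, and it was also lost without d5 Ctrl+vehicle replicate 2 (0.105) or 3 (0.0759). Dlx5 was lost without any 1 of the vehicle libraries but d5 replicate 2 (0.0526 to 0.116). The rise of Prrx2 with FGF2 (0.17, 0.0181) was lost without Ctrl+FGF2 replicate 1 (0.0533) or 2 (0.103) of d2.5 or replicate 1 of d5 (0.12). With unstranded counts the rise of Dlx1 with the knockdown (0.45) came to 0.10 and was lost (adjusted p = 0.224). Each day is 1 batch in the labels, so the day and the batch cannot be told apart.

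The partners of these factors were looked at as lists. TALE homeodomain proteins (Meis, Pbx, Pknox and Tgif) bind DNA together with Hox and other homeodomain factors. Of 10 listed, 7 were tested at d2.5, and FGF2 raised 3 (Tgif2 0.67, Tgif1 0.67 and Pknox1 0.18) and lowered 3 (Meis1 −0.51, Pbx3 −0.32 and Pbx2 −0.20), beside 33.5% and 34.1% of all genes. At d5, 8 were tested and FGF2 raised 4 (Pbx3 0.60, Tgif2 0.58, Meis2 0.48 and Pbx2 0.41), beside 23.5%. The knockdown raised 2 at d2.5 (Pbx3 0.32 and Meis2 0.15), beside 10.8% of all genes, and at d5 raised 1 (Tgif1 0.21) and lowered 3 (Pbx3 −0.64, Meis2 −0.30 and Pbx2 −0.22), beside 15.6% and 16.1%. The comparisons of FGF2 and of the knockdown share the Ctrl+FGF2 libraries here too.

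Eya and Dach proteins are cofactors of sine oculis factors. Of 6 listed, 4 were tested at d2.5, where FGF2 lowered 3 (Dach1 −2.29, Eya1 −1.92 and Eya4 −0.58), beside 34.1% of all genes called lower. Dach1 was low (mean log2 CPM −0.46), and its inclusion leaned on Ctrl+vehicle, as did that of Dlx3 and Dlx5. With the knockdown, Dach1, Eya1 and Eya4 were at −0.53 (adjusted p = 0.642), −0.17 (0.788) and 0.04 (0.58). At d5, 3 were tested. FGF2 lowered Eya4 (−0.42) and the knockdown raised it (0.20), where 23.7% of all genes were called lower with FGF2 and 15.6% higher with the knockdown. Eya1, which fell with FGF2 at d2.5, was not called at d5 (−0.21, adjusted p = 0.0852).

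Other patterning factors of the cranial NC and mesenchyme made a list of 35, of which 14 were tested. At d2.5 FGF2 lowered 10, led by Irx3 (−1.57), Irx5 (−1.34) and En1 (−1.31), and raised 1 (Foxc2 0.64), beside 34.1% of all genes lower and 33.5% higher. At d5 it raised 7, led by Lhx6 (1.44), Foxc2 (0.86) and Foxd1 (0.69), and lowered 2 (Tbx18 −0.44 and En1 −0.23), beside 23.5% and 23.7%. The knockdown raised 1 at d2.5 (Lhx8 0.31), beside 10.8%. At d5 it raised 3 (Irx3 0.55, Tbx18 0.45 and Irx5 0.32) and lowered 3 (Lhx6 −0.80, Foxd1 −0.47 and Tbx15 −0.40), beside 15.6% and 16.1%. Lhx6 and Lhx8 are LIM homeobox factors of the oral side of the first arch. Of 19 RNAs annotated beside the clusters, Dlx1as alone was high enough to test.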

How the data were processed

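Poly(A) RNA of O9-1 cells was sequenced in 18 libraries, 3 in each of 6 groups. The authors deposited raw counts per gene for each library, unnormalized, in the column layout of STAR. The submitters' processing notes name STAR, featureCounts, FastQC and Picard and the build mm10, without roles or versions, and the role of each is not given in the sources used here. Tests ran on the reverse-strand column, where 96.0% to 96.6% of stranded counts fell. Between 27.0% and 34.4% of a library stood in entries without a gene, multimapping reads among them, and was dropped, which can lower genes with close copies. Of 55335 identifiers, 55154 matched GENCODE M21 without version numbers, from which names, coordinates and exon lengths were taken.

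The quasi-likelihood test of edgeR 4.0.16 (R 4.3.3) was applied after TMM scaling and filterByExpr. The 9 libraries of a day were fitted together, and all 18 for differences between days. A standard error (SE) was obtained as the size of the log2 change over the root of its F statistic. The test was tried on simulated data with known changes before use. Values in every library are given for members with a mean of at least 20 CPM in a group and for the 4 largest called changes of each comparison of FGF2 or of the knockdown with Ctrl+FGF2, among members whose mean log2 CPM was 0 or above. Of the other lists, the 3 largest called changes are named first. Of the 64 genes taken by the rule, 4 are not reported here. The members and lists were chosen with earlier results of these data known. The alternatives were DESeq2 1.42.0, upper-quartile or RLE factors, a minimum of 10 counts in each library or no filter, only the 2 groups compared, all 18 libraries, unstranded counts, a replicate block, a 2-fold threshold and leaving out each library.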

Additional observations from a re-analysis of the deposited data

Results flagged for a closer look

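The effect of FGF2 differed between d5 and d2.5 for 9 of 11 members tested, beside 60.9% of all genes. The difference itself was tested, in the fit of 18 libraries. The differences (d5 minus d2.5, log2 scale) were 2.92 for Dlx5, 1.59 for Msx2, 1.25 for Prrx2, 1.23 for Six5, 0.91 for Dlx1, 0.89 for Shox2, 0.54 for Dlx2, 0.39 for Prrx1 and 0.28 for Six4. Six5, Prrx1 and Prrx2 were called in opposite directions on the 2 days. The d5 calls of Prrx2 and Six5 were each lost without 1 of the libraries and with DESeq2. Six4 was called higher on both days, and Dlx5 and Msx2 lower on both.

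The effect of the knockdown differed between the days for 3 of 11 members tested, beside 20.9% of all genes. The differences were −0.34 for Prrx1, −0.30 for Six4 and 0.56 for Prrx2. Prrx1 and Prrx2 were called in opposite directions on the 2 days.

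The column of the strand not used for counting held 2751 counts on Dlx1, 13.8% of its stranded counts, beside at most 3.96% of a whole library. These counts were 195 to 432 per library at d2.5 and 19 to 41 at d5. Groups of 3 libraries are too small for a test of single outlying samples, and none was made.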

How the results depend on the processing

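Of 84 values called changed, none turned direction under any alternative in which the gene was still tested. The call was lost in 39 of 1231 such refits, in 10 results. Refits whose filter dropped the gene are not among the 1231. The minimum of 10 counts in each library drops Dlx5 at d2.5 in this way. The 2-fold threshold is not among these refits either. At a 2-fold threshold, 13.9% of all genes were called with FGF2 at d2.5, the comparison for which this share was counted. With a 2-fold threshold in addition, the members called came to 4 (FGF2 at d2.5), 2 (FGF2 at d5), 0 and 0 (knockdown against FGF2 at d2.5 and d5), 5 and 1 (knockdown with FGF2 against vehicle), 4 and 0 (differences of the FGF2 and of the knockdown effect between days) and 3, 5 and 5 (d5 against d2.5 with vehicle, with FGF2 and with the knockdown). In the same order, leaving out 1 library gave 10 to 10, 5 to 7, 3 to 5, 3 to 5, 11 to 12, 5 to 5, 9 to 9, 3 to 3, 8 to 11, 10 to 13 and 10 to 11 members. The filter was run again in each of these fits, so the set of members tested could change, and 13 exceeds the 11 tested in the main fit. Shares of all genes are not given for these fits or for the replicate block, so the counts show only how far the calls of members moved. For the knockdown at d2.5, 3 members were called without Ctrl+FGF2 replicate 1 or 3 or Y/T dKD+FGF2 replicate 3. DESeq2 called 3 too, beside 2285 of the 11593 genes it tested. Same-numbered libraries of a day deviated together with r of −0.07 to 0.11, and those of different number with r of −0.12 to 0.09. Of 18 same-number pairs, 1 was over 0.1, and of 36 others 0 were. Any pairing by replicate number was thus weak, but it is not excluded. With the replicate block the counts were 10, 6, 5, 4, 12, 5, 9, 3, 8, 11 and 10, and the call lost was that of Msx2 in vehicle between days (−0.24, adjusted p = 0.467). DESeq2 ended the calls of Prrx2 (adjusted p = 0.0758) and Six5 (0.052) with FGF2 at d5, of Dlx2 (0.0742) and Msx1 (0.117) with the knockdown at d2.5 and of Six5 (0.108) at d5, of Barx1 (0.103) between knockdown and vehicle at d2.5, and between days of Dlx5 (0.185) and Msx2 (0.184) in vehicle and of Prrx2 (0.0533) with FGF2. The fit of 18 libraries ended those of Prrx2 with FGF2 (0.0623) and of Six5 with the knockdown (0.055) at d5. Upper-quartile factors brought Dlx1 (0.0311) and Dlx2 (0.0348) past the threshold with FGF2 at d5, and no filter on low counts brought Dlx1 past it too (0.0146). Both ended the call of Dlx5 between days in vehicle (0.078 and 0.0668). Without Ctrl+FGF2 replicate 2 of d2.5, Dlx5 came to 4.12 between days with FGF2, and without Y/T dKD+FGF2 replicate 1, Dlx3 came to −2.51 between knockdown and vehicle at d2.5. The cause of these changes was not tested. Leaving out 1 library turned values that were not called. Msx1 with FGF2 at d2.5 ranged from −0.0441 to 0.11. With the knockdown at d2.5, Dlx5 ranged from −0.128 to 1.11 and Msx2 from −0.354 to 0.185. At d5 the ranges were −0.0834 to 0.0564 for Dlx1, −0.266 to 0.190 for Dlx5, −0.0695 to 0.240 for Msx2, −0.0693 to 0.0109 for Shox2 and −0.0460 to 0.0151 for Six4. Depth limits Dlx5, Dlx3, Alx4 and Msx3, which had few counts.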
